A study of Bos taurus with 6 samples.

Results

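Chaperonins are barrel-shaped machines that fold other proteins, and the genes described here encode the subunits of the cytosolic and of the mitochondrial one. The members were chosen by symbol from the deposited gene table: TCP1, CCT2, CCT3, CCT4, CCT5, CCT6A, CCT7 and CCT8 of the cytosolic TCP1 ring, and HSPD1 and HSPE1 of the mitochondrial chaperonin. The choice was made with earlier results of these data known. These 10 symbols matched 11 of the 17663 genes in the table, because 2 rows carried the name HSPD1. The cells were bovine fetal fibroblasts (bEFs), connective tissue cells grown in primary culture from cattle fetuses of 50–60 days. The 3 FT fetuses carried exogenous fat-1, a worm gene for an enzyme that makes n-3 fatty acids out of n-6 ones, and the 3 WT fetuses were Luxi cattle without it. The promoter of the transgene, the number of transgenic lines, the breed of the FT fetuses and the sex of all fetuses were not given in the sources used here. With 1 poly(A) library from each fetus (FT_1, FT_2, FT_3, WT_1, WT_2 and WT_3), n was 3 in each group and p-values reflect the spread between different fetuses.

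Total counts of the FT libraries, in the order of their numbers, were 63366834, 48167642 and 54204446. The WT libraries held 69777641, 51310741 and 54271927. FT_1 stood apart from the other FT libraries. Its biological coefficient of variation, which measures how far expression differs once counting noise is set aside, was 56.9% against FT_2 and 57.6% against FT_3. FT_2 and FT_3 differed from each other by only 8.23%, and pairs of WT libraries by 9.99–13.4%. The chaperonin results are therefore given with and without FT_1.

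A chaperonin stacks its subunits into rings around a cavity, takes an unfolded protein inside and uses ATP to close and open the chamber. The ring of the cytosol, also called TRiC or CCT, is built from related but different subunits, each with a gene of its own, and folds actin, tubulin and many proteins with WD40 repeats. Fibroblasts depend on these clients for their cytoskeleton and for cell division. In mitochondria a single kind of subunit, HSPD1, forms the barrel and HSPE1 forms its lid, and the pair folds proteins that have been imported into the matrix.

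FT cells had less mRNA of the TCP1 ring than WT cells and still less of the mitochondrial pair. Of the 8 ring subunits, 5 fell (TCP1, CCT3, CCT4, CCT6A and CCT8), and their mean FPKM (fragments relative to gene length and library size) in FT cells was 53.5–59.3% of that in WT cells. CCT2, CCT5 and CCT7 stood at 66.3–72.8% and did not pass the test. The larger row of HSPD1 fell to 40.1% and HSPE1 to 30.6% of the WT mean. The other HSPD1 row stood at 65.4% and did not pass the test, and both HSPD1 rows together stood at 47.1%. In bulk RNA, fewer cells of a type and less RNA per cell cannot be told apart.

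These calls come from edgeR's quasi-likelihood test on the deposited counts, with Benjamini-Hochberg (BH) adjustment over 13482 genes and a threshold of 0.05. The percentages above are of FPKM, which lacks edgeR's scaling between libraries. In edgeR the log2 fold change was -0.74 to -0.60 for the 5 ring subunits called, -1.16 for the larger HSPD1 row and -1.55 for HSPE1. The test called 2547 genes lower (18.9%) and 2714 genes higher in FT (20.1%), so calls were frequent across the whole table. The median log2 fold change was -0.60 over the 8 ring subunits and 0.03 over all genes tested. All 8 ring values were below 0, against 48.2% of all genes. As the members were chosen with earlier results known, these contrasts only describe them. By the threshold in the study's methods, an unadjusted p under 0.05 with a log2 fold change under -1, HSPD1 and HSPE1 passed and the ring did not, against 8.96% of all genes.

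The FPKM columns were tested beside the counts with limma on log2(FPKM + 1) for 12247 genes. All 8 ring subunits, HSPE1 and both HSPD1 rows were past that test and lower in FT, with BH-adjusted p from limma between 0.00049 and 0.047. Its background was also larger on that side, with 29.2% of genes lower and 15.0% higher. After median-ratio scaling of the FPKM between libraries, limma called 5 ring subunits and 7 of the 11 rows lower, the same numbers as edgeR, against 21.6% of all genes. Higher genes made up 34.0% of all calls in limma, 37.6% in edgeR with total counts as the only scaling, and 51.6% in edgeR with its TMM scaling factors. The FPKM scale placed the median of all genes at -0.12 in log2, and total counts placed it at -0.12 too. Measured from the median of all genes, the ring median was -0.63 in edgeR, -0.63 with total counts and -0.64 in limma. The mean of HSPD1 and HSPE1 lay at -1.39, -1.39 and -1.37 on the same 3 scales.

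**Figure D1:**
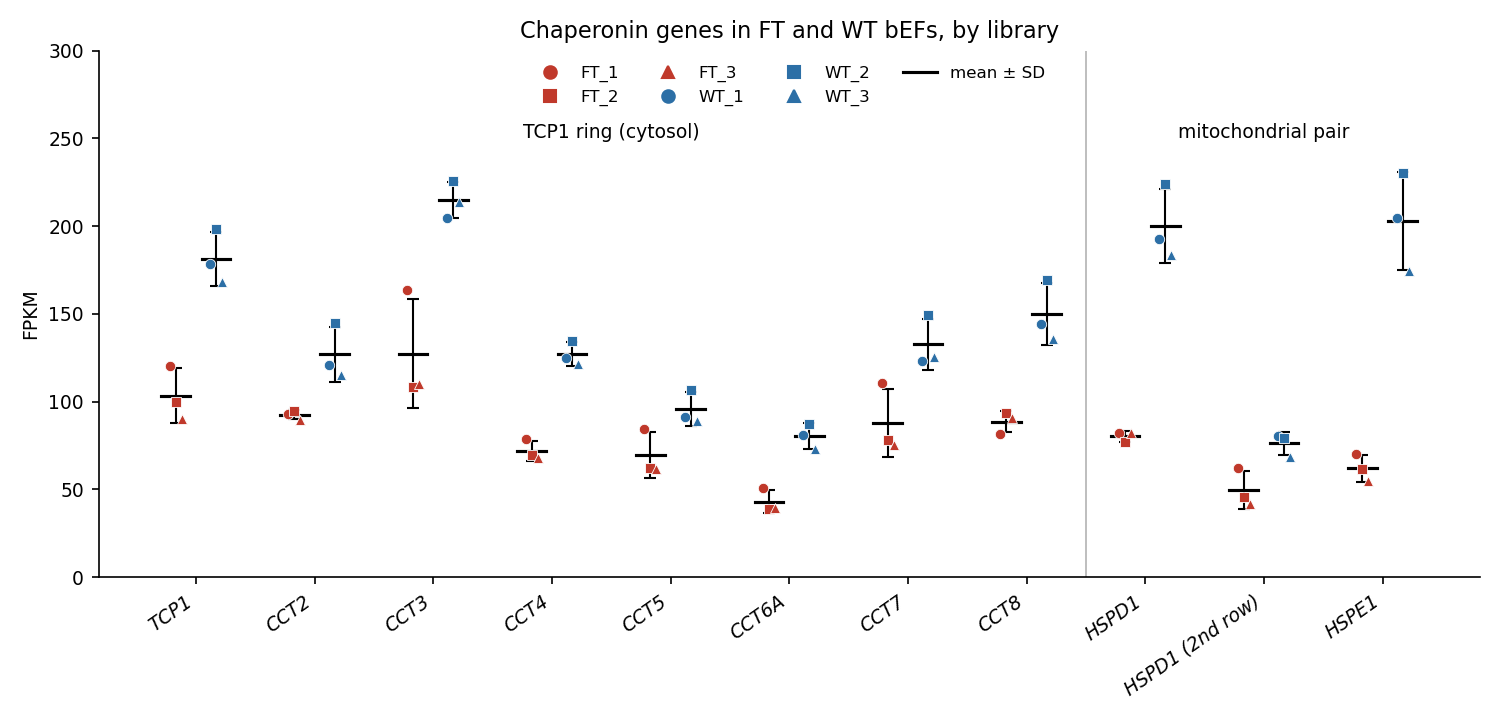
FPKM of the 11 chaperonin rows in each library, with FT libraries in red and WT libraries in blue, black bars for the mean and error bars for the SD of 3 libraries. "2nd row" is the HSPD1 row on chromosome 22. Every red symbol lies below every blue symbol of the same gene, with CCT5 in FT_1 (84.6) closest to WT (89.0).

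Every FT value was below every WT value of the same gene in all 11 rows. Across the genes tested, 36.9% had FT libraries all below WT libraries in FPKM, so such a split was common in these data. Without FT_1, edgeR called 31.5% of 13765 genes lower and 30.6% higher, and all 11 rows were then past the test and lower. The median of the ring without FT_1 was -0.67, against -0.02 over all genes.

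TCP1 encodes the alpha subunit, after which the ring is named (ENSBTAG00000002829, chromosome 9, 96044639–96055563, minus strand, in the authors' table, whose genome build is not given in the sources used here). Its FPKM was 121, 99.8 and 90.0 in FT_1, FT_2 and FT_3 and 178, 198 and 168 in WT_1, WT_2 and WT_3. The highest FT library, FT_1, was well short of the lowest WT library. Its counts were 14531, 9130 and 9270 in FT and 23536, 19263 and 17238 in WT. TCP1 fell by 0.66 on the log2 scale (SE 0.13, BH-adjusted p = 0.0098 in edgeR), and by 0.77 without FT_1.

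CCT4, the delta subunit (ENSBTAG00000004531, chromosome 11, 60465179–60478339, minus strand), had the smallest SE of the ring genes. It had 78.5, 69.6 and 68.2 FPKM in the FT libraries and 125, 135 and 122 FPKM in the WT libraries. The SD was 5.61 in FT and 6.88 in WT, around means of 72.1 and 127.0. The fall was 0.66 on the log2 scale (log2 fold change -0.66, SE 0.087, BH-adjusted p = 0.0029 in edgeR). Counts ran from 8623 to 12829 in FT and from 16890 to 22321 in WT.

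CCT6A, a zeta subunit (ENSBTAG00000008184, chromosome 25, 27727918–27738084, plus strand), was the least abundant ring gene in both groups. FPKM was 50.7, 39.1 and 39.5 in FT_1 to FT_3, against 81.2, 87.4 and 72.8 in WT_1 to WT_3. FT_1 was again the highest FT library. With a log2 fold change of -0.74 (SE 0.13, BH-adjusted p = 0.0066 in edgeR), it had the largest fall of the ring.

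CCT8, the theta subunit (ENSBTAG00000014233, chromosome 1, 7114205–7127950, plus strand), ran the other way within the FT group. It had 81.8, 93.4 and 90.9 FPKM in the FT libraries, against 144, 170 and 136 FPKM in the WT libraries. In no other ring gene was FT_1 the lowest FT library. The log2 fold change was -0.60 (SE 0.12, BH-adjusted p = 0.011 in edgeR), and -0.53 without FT_1.

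CCT3, the gamma subunit (ENSBTAG00000006370, chromosome 3, 14486486–14501164, plus strand), was the most abundant ring gene in both groups. The FT libraries had 164, 108 and 110.4 FPKM, and the WT libraries had 205, 226 and 214 FPKM. FT_1 was 1.496 times the mean of the other FT libraries, the widest such gap in the ring, and lay between them and WT. Its log2 fold change was -0.60 (SE 0.17, BH-adjusted p = 0.035 in edgeR), and -0.80 without FT_1 (adjusted p = 5.4e-06 in edgeR). When any other single library was left out in place of FT_1, the BH-adjusted p in edgeR was 0.090–0.114 and the call was lost. Lower calls over all genes also went down in these fits, from 2547 to 1531–1998. Across all alternatives the log2 fold change of CCT3 lay between -0.80 and -0.50.

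CCT7, the eta subunit, and CCT5, the epsilon subunit, had a similar split within FT. CCT7 (ENSBTAG00000012756, chromosome 11, 11197280–11214567, minus strand) had 110.5 FPKM in FT_1 but 77.9 and 75.5 in FT_2 and FT_3, and 123, 149 and 126 FPKM in WT. CCT5 (ENSBTAG00000017889, chromosome 20, 62979746–62993754, minus strand) had 84.6 FPKM in FT_1, 62.3 and 61.5 in FT_2 and FT_3, and 91.6, 107 and 89.0 FPKM in WT. In both genes FT_1 was nearer to the lowest WT library than to the other FT libraries. The log2 fold change was -0.44 for CCT7 (SE 0.17, BH-adjusted p = 0.084 in edgeR) and -0.31 for CCT5 (SE 0.15, BH-adjusted p = 0.15 in edgeR). Without FT_1 the values were -0.62 (adjusted p = 0.00019 in edgeR) and -0.46 (adjusted p = 0.0010 in edgeR).

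CCT2, the beta subunit (ENSBTAG00000019156, chromosome 5, 43869187–43884991, minus strand), was the ring gene with the least spread in FT cells. Its FPKM was 93.3, 94.6 and 89.6 in FT and 121, 145 and 115 in WT. FT_1 did not stand apart here, and the WT libraries were the more scattered ones. The log2 fold change was -0.30 (SE 0.11, BH-adjusted p = 0.069 in edgeR), the smallest of the 8, and -0.29 without FT_1 (adjusted p = 0.021 in edgeR).

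**Figure D2:**
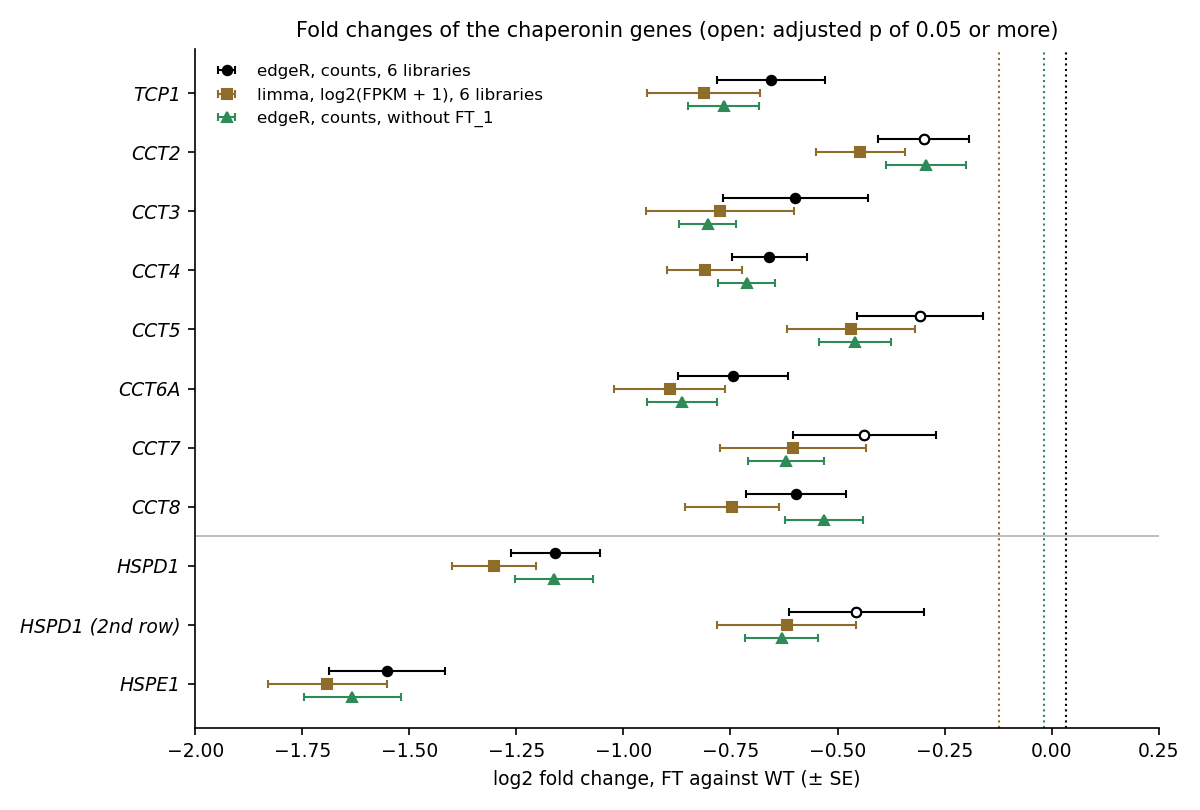
Log2 fold change of FT against WT with its SE for each of the 11 rows, from edgeR on counts (black), limma on log2(FPKM + 1) (brown) and edgeR without FT_1 (green), where open symbols have an adjusted p of 0.05 or more and dotted lines mark each fit's median over all genes. The ring lies between -0.89 and -0.29 in these fits, and HSPD1 (-1.30 to -1.16) and HSPE1 (-1.69 to -1.55) lie lower.

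HSPE1 encodes the lid of the mitochondrial chaperonin (ENSBTAG00000012589, chromosome 2, 86044912–86048062, plus strand). Its FPKM was 69.9, 61.6 and 54.8 in FT_1, FT_2 and FT_3 and 205, 230.3 and 174 in WT_1, WT_2 and WT_3. The groups were far apart, and FT_1 stayed with the FT libraries. WT counts were 13916, 11534 and 9217, and FT counts were 4347, 2902 and 2913. HSPE1 fell by 1.55 on the log2 scale (SE 0.14, BH-adjusted p = 0.0011 in edgeR). On the FPKM scale, which lacks edgeR's scaling between libraries, its group means differed 3.27-fold. Only 5.24% of the genes tested had a lower log2 fold change.

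HSPD1 encodes the barrel subunit, and its larger row (ENSBTAG00000012586) lies on chromosome 2, 86035475–86045870, minus strand. This row had 81.9, 76.8 and 82.1 FPKM in the FT libraries and 193, 224 and 184 FPKM in the WT libraries. The FT libraries differed little, with an SD of 2.99 around a mean of 80.3. Counts were 14967, 10646 and 12809 in FT and 38527, 32995 and 28541 in WT. HSPD1 fell by 1.16 on the log2 scale (SE 0.10, BH-adjusted p = 0.0011 in edgeR), and also by 1.16 without FT_1. In edgeR 9.23% of genes had a lower value.

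HSPD1 and HSPE1 lie head to head in the table, and their spans overlap by 959 bases on opposite strands. Whether counting used the strand is not stated, so reads from the overlap cannot be told apart, and both values carry that uncertainty. HSPE1 was also short, with a relative length of 976 bases against a median of 2493 bases over the genes tested. Across genes the edgeR log2 fold change had a Spearman's rho of 0.169 with length (n = 13482 genes, whose values depend on each other). After a smooth length trend was taken out, the log2 fold change was -1.32 for HSPE1 (BH-adjusted p = 0.0013 in edgeR) and -1.19 for HSPD1 (BH-adjusted p = 0.0011 in edgeR).

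The other row named HSPD1 (ENSBTAG00000047441) lies on chromosome 22, 13635727–13637448, minus strand. It had 62.1, 45.6 and 41.9 FPKM in FT and 80.8, 79.4 and 68.5 FPKM in WT. Its log2 fold change was -0.46 (SE 0.16, BH-adjusted p = 0.063 in edgeR), less than that of the larger row, and its FT_1 value was nearest to WT. Of the counts in both rows it took 31.8%, 26.8% and 23.9% in FT_1, FT_2 and FT_3, and 17.9–20.5% in WT. How reads that match both rows were counted is not stated, so the division between them is uncertain. With both rows summed, which was tried after the data were seen, HSPD1 had a log2 fold change of -0.997 (BH-adjusted p = 0.0016 in edgeR).

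The balance between subunits was described from FPKM, which corrects for gene length, and was not tested. With 3 libraries in each group, exact permutation allows no p below 0.10. The summed FPKM of the ring was 783, 645 and 626 in the FT libraries and 1069, 1216 and 1042 in the WT libraries. CCT2 took 11.9%, 14.7% and 14.3% of this sum in the FT libraries and 11.3%, 11.9% and 11.05% in the WT libraries. CCT5 took 9.66–10.8% in FT and 8.54–8.78% in WT. For both genes the FT and WT shares were apart, with FT above, although by very little for CCT2 in FT_1.

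Shares moved the other way for TCP1, CCT4 and CCT6A. TCP1 held 14.4–15.5% in FT and 16.1–16.7% in WT, CCT4 held 10.0–10.9% and 11.1–11.7%, and CCT6A held 6.06–6.47% and 6.99–7.59%. The shares of CCT3, CCT7 and CCT8 overlapped between groups, for CCT3 and CCT8 only through FT_1. CCT3 held 16.8% and 17.6% in FT_2 and FT_3, below WT (18.6–20.5%), and 20.9% in FT_1. CCT8 held 14.5% in both FT_2 and FT_3, above WT (13.0–13.9%), and 10.4% in FT_1. CCT7 held 12.1% in both FT_2 and FT_3, inside the range of WT (11.5–12.3%), and 14.1% in FT_1. The most abundant ring subunit exceeded the least abundant one 2.78–3.23 times in FT and 2.53–2.94 times in WT. This ratio overlapped between the groups, while the summed FPKM of the ring was lower in every FT library than in any WT library.

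The mitochondrial pair shifted against the ring. HSPD1 stood at 0.84, 0.95 and 1.05 times the mean FPKM of a ring subunit in FT_1, FT_2 and FT_3, and at 1.44, 1.47 and 1.41 times in WT_1, WT_2 and WT_3. HSPE1 stood at 0.71, 0.76 and 0.70 times in FT and at 1.53, 1.51 and 1.34 times in WT. Both genes were above the ring mean in every WT library, while HSPE1 was below it in every FT library. HSPD1 over HSPE1 was 1.17, 1.25 and 1.496 in FT and 0.94, 0.97 and 1.05 in WT. The gap between the 2 genes was smaller with the length trend taken out (-1.32 for HSPE1 and -1.19 for HSPD1) than without (-1.55 and -1.16), and it was not tested. With both HSPD1 rows the ratio was 1.99–2.26 in FT and 1.32–1.45 in WT.

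**Figure D3:**
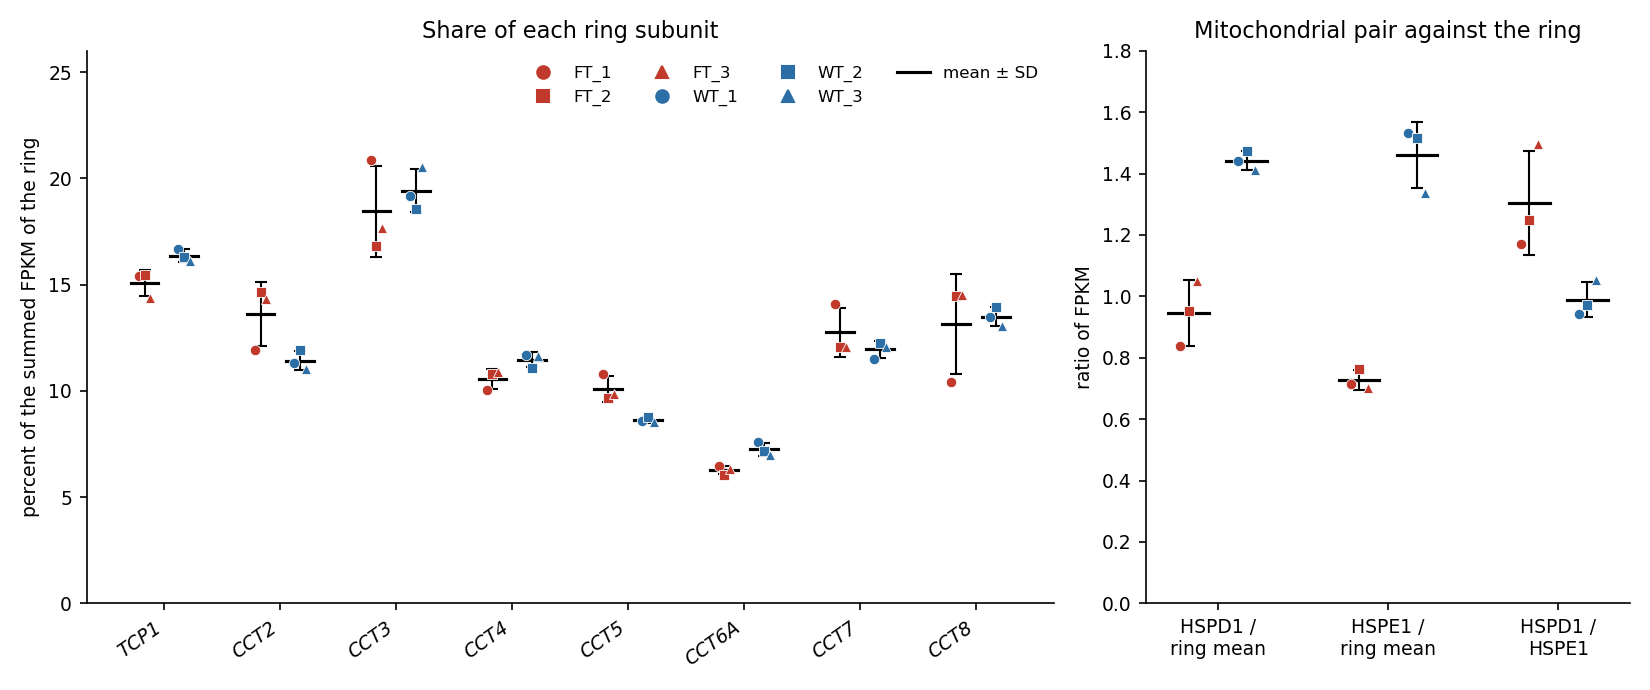
Left, percent of the summed ring FPKM that each subunit took in each library. Right, FPKM of HSPD1 and of HSPE1 over the ring mean, and of HSPD1 over HSPE1 (FT red, WT blue, black bars mean and SD of 3 libraries). CCT2 and CCT5 took a larger share in FT, and the mean ratio to the ring was 0.95 in FT against 1.44 in WT for HSPD1 and 0.73 against 1.46 for HSPE1.

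Ordered by mean FPKM, CCT3 came first in both groups. HSPE1 (203) and HSPD1 (200.2) took places 2 and 3 of 11 in WT, followed by TCP1 (182). In FT, HSPD1 (80.3) was in place 6, after TCP1 (103), CCT2 (92.5), CCT8 (88.7) and CCT7 (88.0), and HSPE1 (62.1) was in place 9. Neighbours in this order overlapped in all 10 pairs in FT and in 8 of 10 in WT. The exceptions were CCT4 against CCT5 and CCT5 against CCT6A in WT. All 11 rows were among abundant genes, with at least 91.9% of the genes tested below them in mean FPKM.

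Close relatives of the ring genes were far less abundant. CCT6B, a second zeta subunit, had 0.23–0.48 FPKM in FT and 0.87–1.01 FPKM in WT (log2 fold change -1.08, BH-adjusted p = 0.058 in edgeR). BBS10, a chaperonin-like protein that helps to assemble the BBSome of cilia, fell from 3.23–3.77 FPKM in WT to 1.48–1.88 FPKM in FT (log2 fold change -0.89, BH-adjusted p = 0.0071 in edgeR). MKKS and BBS12, its partners, had log2 fold changes of 0.14 and -0.32 and did not pass. So 1 of the 4 relatives was lower in edgeR, near the share of all genes (18.9%). In limma 2 were lower, and without FT_1 3 were (BBS10, BBS12 and CCT6B), against 29.2% and 31.5% of all genes.

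Prefoldin hands unfolded actin and tubulin to the ring, and 4 of its 5 listed subunits fell, against 18.9% of all genes, with a median log2 fold change of -0.83. PFDN6 had 13.0, 12.8 and 11.2 FPKM in FT and 32.2, 37.1 and 31.9 FPKM in WT (log2 fold change -1.29, BH-adjusted p = 0.00091 in edgeR). PFDN1 was close behind at -1.08 (BH-adjusted p = 0.00077 in edgeR). PFDN2 did not pass in edgeR, at -0.28, and was at 0.02 with the length trend taken out. It was lower in limma (-0.44, BH-adjusted p = 0.018 in limma). All 5 subunits were lower in limma and 4 without FT_1, against 29.2% and 31.5% of all genes. Of the 4 phosducin-like and related cofactors of the ring, PDCL3 fell (-0.44, BH-adjusted p = 0.0093 in edgeR). PDCL, TXNDC9 and PDCD5 did not pass in edgeR, and the median of the 4 was -0.04. PDCD5 was lower too in limma (-0.34, BH-adjusted p = 0.017 in limma), against 29.2% of all genes. Without FT_1, TXNDC9 was higher (0.20, BH-adjusted p = 0.036 in edgeR), against 30.6% of all genes.

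Clients of the ring were mixed, and no test was made of them as a group. Among 13 tubulins and actins 3 fell and 2 rose in edgeR, with a median log2 fold change of -0.02, and 7 had every FT library below every WT library in FPKM. The shares of all genes were 18.9% lower, 20.1% higher and 36.9% with such a split. The tubulins TUBA1B (-0.70, BH-adjusted p = 0.015 in edgeR) and TUBB4B (-0.54, 0.014) fell. TUBB2B rose from 4.43–5.26 FPKM in WT to 9.05–17.0 FPKM in FT, and TUBG1, the gamma tubulin of centrosomes, rose from 18.9–22.5 to 29.0–32.9 FPKM. ACTG1, the most abundant of the list, had 2299–2474 FPKM in FT and 2755–2961 FPKM in WT and did not pass (log2 fold change -0.08). Of 13 other clients, mostly WD40 proteins, 3 fell and 1 rose in edgeR, with a median of -0.24. In limma 6 of them were lower and none higher, against 29.2% and 15.0% of all genes, and 9 had every FT library below every WT library, against 36.9%. CDC20 and PLK1, regulators of mitosis, fell furthest in that list (-2.25 and -1.34, BH-adjusted p = 0.0027 and 0.0044 in edgeR), and GNB2, a G protein subunit, rose by 0.31 in log2 but did not pass in limma. FZR1, an activator of the APC/C, was at 0.23 and did not pass. Without FT_1, 5 of these 13 were lower and 3 higher (FZR1, MLST8 and GNB2), and of the tubulins and actins 5 were lower and 2 higher, against 31.5% and 30.6% of all genes. TSSC1 was not analysed here.

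Tubulin folded by the ring passes to the tubulin cofactors, and 3 of the 6 listed fell in edgeR, against 18.9% of all genes, with a median of -0.45. In limma 5 were lower, and 5 without FT_1, against 29.2% and 31.5%. TBCA, which binds beta tubulin, had 58.3, 69.4 and 55.3 FPKM in FT and 156, 179 and 155 FPKM in WT (log2 fold change -1.26, BH-adjusted p = 0.0012 in edgeR). TBCB, which binds alpha tubulin, fell by 0.51 in log2.

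Around HSPD1 and HSPE1 in the mitochondrion, 2 of 8 other chaperone genes fell, near the share of all genes (18.9%), and the median of the list was 0.16. HSPA9, the matrix Hsp70 that passes imported proteins on, had 132, 131 and 142 FPKM in FT and 262, 256 and 283 FPKM in WT (log2 fold change -0.83, BH-adjusted p = 0.0018 in edgeR). Its exchange factor GRPEL1 fell by 0.52 in log2 (BH-adjusted p = 0.0035 in edgeR). GRPEL2 and CLPB, with values of 0.24 and 0.56, did not pass. Without FT_1, TRAP1 was lower too (-0.56, BH-adjusted p = 0.00014 in edgeR).

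Among 11 mitochondrial proteases 5 fell and 2 rose (median -0.29), against 18.9% and 20.1% of all genes. Without FT_1, 8 were lower and 2 higher, against 31.5% and 30.6%. The processing peptidase subunits PMPCB (-1.07, BH-adjusted p = 0.0011 in edgeR) and PMPCA (-0.75, 0.0015) fell most clearly. CLPP, a matrix protease, rose from 4.35–4.55 FPKM in WT to 5.88–6.38 FPKM in FT (log2 fold change 0.63, BH-adjusted p = 0.0028 in edgeR), while its unfoldase partner CLPX fell (-0.45, 0.0098). SPG7 rose by 0.33 in edgeR and did not pass in limma.

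**Figure D4:**
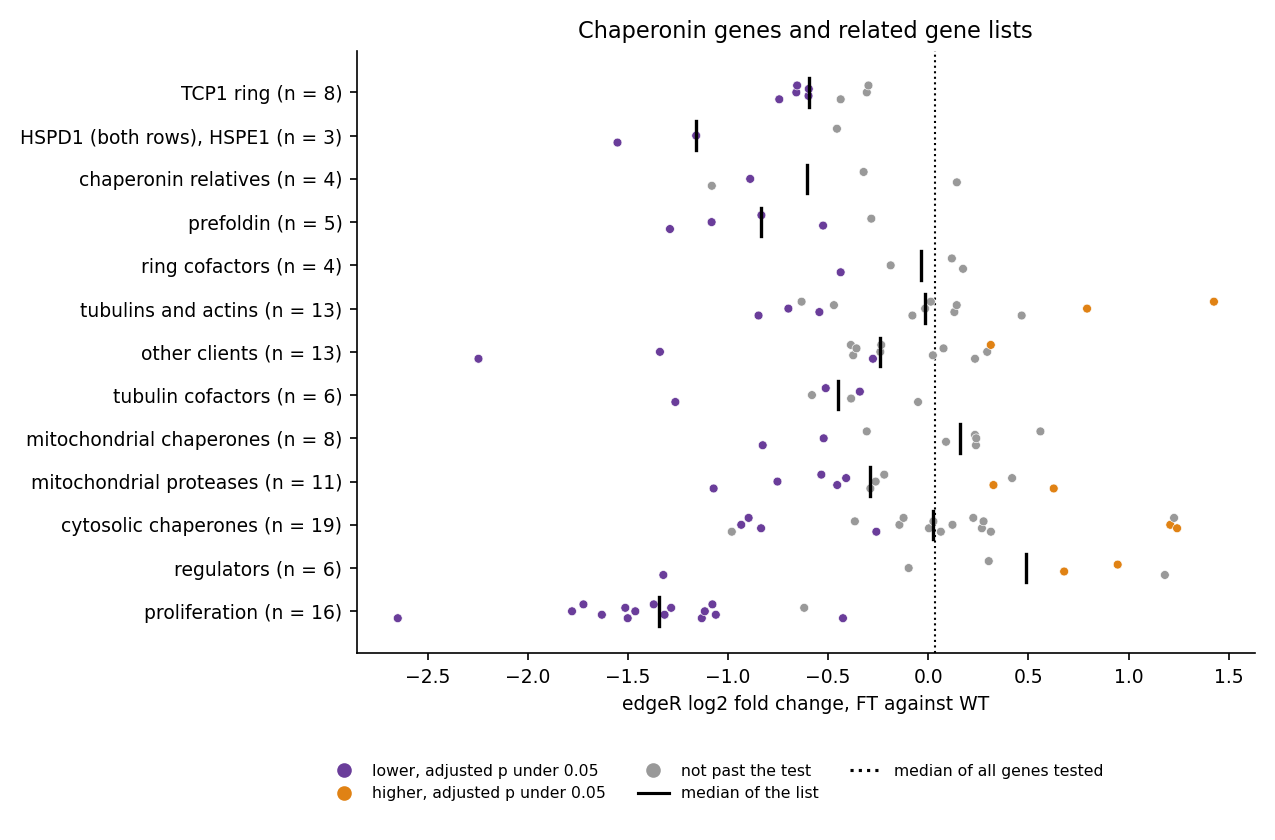
Each dot is the edgeR log2 fold change of 1 gene, purple where lower and orange where higher at an adjusted p under 0.05 and grey otherwise, with a black bar at the median of each list and a dotted line at the median of all genes tested (0.03). The medians of the ring (-0.60), prefoldin (-0.83) and proliferation genes (-1.34) lie to the left, and those of tubulins and actins (-0.02) and cytosolic chaperones (0.03) near the dotted line.

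The other chaperones of the cytosol moved in both directions, with 4 of 19 lower, 2 higher and a median of 0.03. These counts were near the share of all genes for lower calls (18.9%) and under it for higher calls (20.1%). Without FT_1, 6 were lower and 5 higher, HSPH1 (1.61) among the latter, against 31.5% and 30.6% of all genes. HSPA1A, an inducible Hsp70, had 127, 106 and 96.0 FPKM in FT and 49.7, 53.1 and 52.5 FPKM in WT (log2 fold change 1.24, BH-adjusted p = 0.0011 in edgeR). HSPB1, a small heat shock protein, rose by a similar 1.21 (BH-adjusted p = 0.0014 in edgeR). HSPA4 and PTGES3, cochaperones of Hsp70 and Hsp90, fell by 0.84 and 0.90 in log2. HSPA8, the main constitutive Hsp70, had 729–772 FPKM in FT and 725–830 FPKM in WT and did not pass. HSP90AA1, the inducible Hsp90, fell from 375–438 to 150–209 FPKM (log2 fold change -0.93, BH-adjusted p = 0.0087 in edgeR). Heat shock genes thus moved in both directions.

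Known regulators of chaperone genes were also mixed. HSF1, the main heat shock factor, had 18.8, 16.8 and 18.3 FPKM in FT and 9.96, 10.8 and 10.5 FPKM in WT (log2 fold change 0.95, BH-adjusted p = 0.00094 in edgeR). DDIT3, which acts in the mitochondrial and endoplasmic reticulum stress responses, fell from 128–134 to 42.5–51.2 FPKM (log2 fold change -1.32, BH-adjusted p = 0.00080 in edgeR). ATF5, a factor of the mitochondrial unfolded protein response, rose by 0.68 (BH-adjusted p = 0.044 in edgeR), but did not pass in limma (adjusted p = 0.097). HSF2, ATF4 and MYC did not pass with all libraries. Without FT_1, HSF2 was higher (0.35, BH-adjusted p = 0.0074 in edgeR) and ATF4 was lower (-0.40, 0.0013), where ATF4 had 657 FPKM in FT_1 and 367 and 393 FPKM in FT_2 and FT_3. MYC had 95.5 FPKM in FT_1 against 16.1 and 16.3 in FT_2 and FT_3 and 18.9–23.9 in WT, so its edgeR value of 1.18 was carried by FT_1 and was -0.19 without it. MYCN had at most 0.03 FPKM.

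Proliferation genes were lower in FT cells too. All 16 listed genes were in the table and 15 fell, against 18.9% of all genes, with a median log2 fold change of -1.34. Their summed FPKM was 169, 244 and 234 in FT_1, FT_2 and FT_3 and 590, 705 and 578 in WT_1, WT_2 and WT_3. By mean FPKM, CCNB1 was the most abundant of them in WT (79.8) and MCM7 in FT (27.5), and MCM2 was the one that did not pass in edgeR. None was at 0 in any library, and CDK1 and TYMS fell by 1.63 and 1.46 in log2. Their part in the chaperonin result was not tested.

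Markers of cell types were checked because the cultures could hold other cells. All 10 fibroblast markers were found, with summed FPKM of 6828, 17047 and 16783 in FT_1, FT_2 and FT_3 and 17272–17821 in WT. By mean FPKM, VIM was the most abundant in WT (7793) and DCN in FT (3221, with VIM at 3088). In edgeR PDGFRA was the 1 marker that passed, higher in FT (log2 fold change 1.06) where 20.1% of all genes were, while DCN (0.72), VIM (-1.17) and COL3A1 (-0.38) did not. VIM was lower in limma (BH-adjusted p = 0.046). Without FT_1, edgeR called 5 of the 10 higher, among them DCN (1.01, BH-adjusted p = 1.6e-06), and VIM lower (-0.79, 1.1e-05), against 30.6% of all genes higher and 31.5% lower. The 5 epithelial markers summed to 138 FPKM in FT_1, 8.47 and 9.20 in FT_2 and FT_3 and 7.83–13.9 in WT, with KRT8 the most abundant in FT_1 (84.1 FPKM) and CDH1 in the other 5 libraries (7.11–13.9 FPKM). KRT8 had 0.95 and 0.61 FPKM in FT_2 and FT_3, KRT18 had 11.2, 0.34 and 0.18 FPKM in the FT libraries, and both were at 0 in WT. EPCAM was at 0 in all libraries but FT_1 (0.57 FPKM). With all libraries none of the epithelial markers passed in edgeR or limma, and without FT_1 KRT8 and KRT18 were higher (BH-adjusted p = 3.7e-05 and 0.0011 in edgeR). The part of these markers in the chaperonin result was not tested.

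The listed markers of other cell types that were found had at most 12.9 FPKM in any library. The 4 endothelial markers summed to 0.26–0.76 FPKM in FT and 0.71–1.15 FPKM in WT, where PECAM1 was the highest. KDR was at 0 in FT, and PECAM1 and TEK did not pass, although PECAM1 was lower without FT_1 (BH-adjusted p = 0.00045 in edgeR). Of 4 leukocyte markers 3 were analysed, led by CD68 with 0.77–1.35 FPKM in FT and 2.57–3.02 FPKM in WT, and CD3E was at 0 in every library but WT_3. CD68 was lower in FT and CSF1R did not pass. DES led the muscle markers, with 3.17–5.74 FPKM in FT and at most 0.07 FPKM in WT, and was higher, while MYH3 (at most 0.12 FPKM) was lower. Cartilage markers summed to at most 2.29 FPKM, with SOX9 the highest in FT_1 (2.19) and ACAN in WT (0.56–0.71). ACAN was lower in FT, SOX9 did not pass, and COL2A1 was at 0 outside FT_1. S100B led the glial markers, with 4.29–12.9 FPKM in FT and 9.11–9.92 FPKM in WT, and did not pass, although it was lower without FT_1 (-0.74, BH-adjusted p = 0.0012 in edgeR). PTPRC, MYOD1, MYOG, COL9A1 and SOX10 were not analysed here. What these markers contribute to the chaperonin result was not tested.

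Within 5 kb of the members lay 12 other genes, of which 10 were tested. In edgeR 3 of these fell, against 18.9% of all genes, and all 10 had a log2 fold change below 0, against 48.2%. The 10 include RF00401 and RF00429, which lie inside TCP1 on the same strand and had at most 83 and 27 counts. Their reads cannot be told apart from those of TCP1, so they are not separate neighbours. Without FT_1, 6 of the 10 were past the test and lower, against 31.5%. ACAT2, an acetyl-CoA acetyltransferase that overlaps the end of TCP1 by 85 bases on the opposite strand, had 18.01, 14.4 and 15.2 FPKM in FT and 29.2, 30.9 and 27.6 FPKM in WT (log2 fold change -0.72, BH-adjusted p = 0.0036 in edgeR). As above, reads in the shared stretch cannot be told apart without strand. MRPL18, a mitochondrial ribosomal protein gene 941 bases from TCP1, had a log2 fold change of -0.09 and did not pass. Next to CCT8, USP16 was at -0.03, next to CCT6A, SUMF2 was at -0.10, and next to CCT7, PRADC1 was at -0.61. None of them passed in edgeR, and SUMF2 and PRADC1 passed in limma (BH-adjusted p = 0.047 and 0.046). PRADC1 was also lower without FT_1 (-0.35, BH-adjusted p = 0.022 in edgeR). FAM173B, 4332 bases from CCT5, fell by 0.55 in log2, and TSACC, 71 bases from CCT3 and with at most 0.65 FPKM, fell by 1.34 (BH-adjusted p = 0.036 in edgeR). The short RNA genes RF00401 and RF00429, inside TCP1, were at -1.32 and -1.04, and FBXO41, near CCT7 and with at most 0.25 FPKM, was at -1.66. These 3 did not pass in edgeR with all libraries, although RF00401 did in limma, and without FT_1 RF00401 (-1.72) and FBXO41 (-3.32) did (BH-adjusted p = 0.019 and 0.0010 in edgeR).

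Genes outside the lists were ranked by how closely their centred log2 CPM over the 6 libraries followed the mean of the ring. The nearest with a symbol were DCPS (Euclidean distance 0.071), GPN3 (0.084), MAIP1 (0.095) and MRPL48 (0.10). DCPS, a scavenger of mRNA caps, had 6.19, 5.21 and 5.08 FPKM in FT and 8.44, 9.33 and 8.35 FPKM in WT. By the same measure TCP1 (0.17) and CCT4 (0.18) were the subunits closest to the ring mean, and CCT8 (0.39) and CCT2 (0.38) were the farthest.

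Nearest to the mean of HSPD1 and HSPE1 were POP5 (0.091), RPL36AL (0.098), CYCS (0.15) and TTF2 (0.17). CYCS, the cytochrome c that carries electrons in mitochondria, had 38.4, 32.4 and 31.1 FPKM in FT and 94.9, 119 and 88.2 FPKM in WT. POP5, a subunit of RNase P, had 5.02, 4.74 and 4.40 FPKM in FT and 13.6, 15.8 and 12.7 FPKM in WT. HSPD1 and HSPE1 themselves each lay 0.28 from their mean. These distances only order genes by likeness over 6 libraries.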

How the data were processed

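Libraries of 3 FT and 3 WT fetuses were compared. The authors mapped the reads with HISAT and estimated expression with StringTie and edgeR, and the submitters' processing notes name HISAT2 2.0, StringTie 1.3.0, Bowtie 0.12.2 and the mouse build mm8. The bovine build and annotation release are not given in the sources used here. The raw count of each gene was deposited by the authors, 1 column per library. The FPKM values were deposited by the authors in the same table, scaled by gene length and library total. Relative length was the count divided by FPKM and library total.

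The members and gene lists were chosen with earlier results of these data known. Counts were tested with edgeR 4.0.16 in R 4.3.3 (TMM factors, filterByExpr, glmQLFit and glmQLFTest, BH adjustment over all genes tested), and the SE was derived as the absolute log2 fold change over the square root of F. FPKM was tested with limma 3.58.1 on log2(FPKM + 1), with an intensity trend and a mean FPKM of at least 0.5. Such fold changes understate the change of low genes. DESeq2 1.42.0 was an alternative. Outcomes of the methods on simulated counts are not reported here. Named genes were all members, the 2 genes with the smallest p in each direction of every other list, the regulators, the most abundant gene of each marker list, 5 genes of most similar profile to the ring and to the pair, and genes within 5 kb of a member. BBS12, PFDN2, ACTG1, MLST8, CLPX, TRAP1, HSPA8, HSPH1, HSP90AA1, CCNB1, MCM2, MCM7, CDH1 and the markers at 0 were outside that rule and were named after their values were seen. Alternatives covered scaling, filters, pseudocount (0.1), prior variance, the length trend, each library left out in turn, and a replicate block. All 6 libraries were counted separately because the study's methods name a different fetus for each. Libraries of 1 group differed by more than sampling noise, with a mean chi-square per gene of at least 11.5. That value covers counting noise only and cannot show that the fetuses differ.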

Additional observations from a re-analysis of the deposited data

How the results depend on the processing

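HSPD1 and HSPE1 kept their direction and stayed past the test in all 37 values from the alternatives, with log2 fold changes of -1.31 to -0.997 for HSPD1 and -1.71 to -1.32 for HSPE1. TCP1, CCT4, CCT6A and CCT8 also stayed past the test in all 18 alternatives each. All 144 alternative values of the ring subunits were below 0. CCT3 lost its call in 6 alternatives, the replicate block and every left-out library but FT_1. Fewer libraries or residual degrees of freedom remained in these fits, but also in the fit without FT_1, which kept the call. The reason was not tested. CCT2, CCT7 and CCT5 gained a call in 6, 5 and 3 alternatives.

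The number of ring subunits past the test and lower was 8 in limma with either pseudocount, 7 with no filter on low FPKM and 5 with median-ratio scaled FPKM. It ranged from 4 to 8 when 1 library was left out (8 without FT_1), against 5 as reported. Without 1 library the genes past the test numbered 1516–4215 higher and 1531–4337 lower, and FT_1 gave the highest counts. They numbered 1744 higher in limma with no filter on low FPKM. The cause was not tested.

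Replicate numbers name different fetuses. The deviations of same-numbered libraries from their group means correlated at -0.0010, -0.020 and 0.018, so the numbers pair nothing. With the replicate block 1838 genes were higher and 1741 lower, and 4 ring subunits were lower.

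Of 1309 alternative values of the 74 other named genes, 75 lost a call, 40 gained one and 22 changed sign without a call. None of the called ones changed sign. Low genes without an adjusted p in DESeq2, or under limma's filter, were left out there. Planned motif searches in promoters and proteins were not run for lack of sequences. With 3 libraries per group, and 1 of the FT libraries apart from the others, a value that missed the threshold does not show equal levels.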
